A study of Homo sapiens with 4 samples.

Results

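Peaks on pseudogenes were followed in an RNA immunoprecipitation sequencing (RIP-seq) experiment on NSUN2 in PANC-1 cells. A peak was taken as a pseudogene peak when the deposited annotation placed it inside a gene and gave that gene a biotype holding the word pseudogene. The rule found 945 of the 48104 peaks of the lactate list and 2131 of the 95785 peaks of the ddH2O list. The study also merged both lists into 116484 regions, and 2509 of these merged peaks overlapped a pseudogene peak by at least 1 base. PANC-1 is a long established human line of pancreatic ductal adenocarcinoma cells, labelled wild-type, and the cells of both conditions were grown alike. Cells received either sodium lactate at 30 mM for 24 h or the vehicle ddH2O. Each condition had 1 library from the anti-NSUN2 immunoprecipitation (IP) and 1 input library from the lysate, 4 libraries in all, so no value has a replicate error and no difference between conditions could be tested.

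A pseudogene is a copy of a gene that has lost the ability to make the gene's protein. A processed pseudogene arose when an mRNA was copied back into the genome, so it usually has no introns. An unprocessed pseudogene arose by duplication of a stretch of DNA and keeps the exon and intron layout of its parent, and a unitary pseudogene is a gene that decayed in place with no working copy left. The prefix transcribed marks pseudogenes for which the annotation holds transcript evidence. NSUN2 is a methyltransferase that places 5-methylcytosine (m5C) on tRNAs and on other RNAs including mRNAs. Since many pseudogenes are near copies of abundant mRNAs, a read from the parent can match the copy, and how reads with several matches were placed is not given in the sources used here. The library kit does not mark the strand, so reads of a pseudogene and of a gene it overlaps on either strand cannot be told apart.

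The lists differed in length, and so did the counts of pseudogenes. Peaks of the lactate list fell on 550 pseudogenes and those of the ddH2O list on 1197. Of the 1325 pseudogenes with a peak in either list, 422 had a peak in both, 128 in the lactate list alone and 775 in the ddH2O list alone. The same split over all genes with a peak was not counted. Of the 2509 merged pseudogene peaks, 23.3% were common to both lists, 14.8% came from lactate alone and 61.9% from ddH2O alone. Over all merged peaks these shares were 22.6%, 18.0% and 59.4%. Most pseudogenes carried a single peak, namely 410 of 550 with lactate and 928 of 1197 with ddH2O. As a share of the list, pseudogene peaks made up 1.96% with lactate (1.84 to 2.09%, a 95% Wilson interval for counting error only). With ddH2O they made up 2.22% (2.13 to 2.32%). The ductal keratin genes KRT7, KRT8, KRT18 and KRT19 had a peak in both lists, while EPCAM and VIM each had 1 peak with ddH2O and 0 with lactate. The IP windows outside MT-RNR2 and MALAT1 held 1945000 reads with lactate and 3536821 with ddH2O.

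Duplicated and retrocopied pseudogenes made up most of both lists. Transcribed unprocessed pseudogenes held 418 of the 945 lactate peaks (44.2%, 41.1 to 47.4%) and 844 of the 2131 ddH2O peaks (39.6%, 37.5 to 41.7%). Processed pseudogenes held 275 lactate peaks (29.1%, 26.3 to 32.1%) and 733 ddH2O peaks (34.4%, 32.4 to 36.4%). By number of genes the order was the other way round, with 764 processed and 247 transcribed unprocessed pseudogenes among the 1325. The transcribed processed class followed with 106 and 255 peaks, the unprocessed class with 90 and 173, and the transcribed unitary class with 49 and 118. The smallest classes were the 5S rRNA pseudogenes, the untranscribed unitary pseudogenes and the translated class, the last of which was a single ddH2O peak in an intron of PMS2P2.

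The transcript region separated the classes sharply. Of the processed pseudogene peaks, 98.5% (96.3 to 99.4%) lay on exons with lactate and 99.7% (99.0 to 99.9%) with ddH2O. Of the transcribed unprocessed pseudogene peaks, 34.7% (30.3 to 39.4%) and 36.1% (33.0 to 39.4%) did, and the rest lay in introns. The share was 43.4% and 49.4% for the transcribed processed class, 37.8% and 43.4% for the unprocessed class, and 44.9% and 39.0% for the transcribed unitary class. Over all classes, exons held 55.2% (52.1 to 58.4%) of the lactate and 60.3% (58.2 to 62.4%) of the ddH2O pseudogene peaks. The exon share was 35.6% on lncRNA genes with lactate and 36.4% with ddH2O. On protein-coding genes, whose UTR peaks are listed apart, it was 18.8% and 21.0%.

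**Figure D1:**
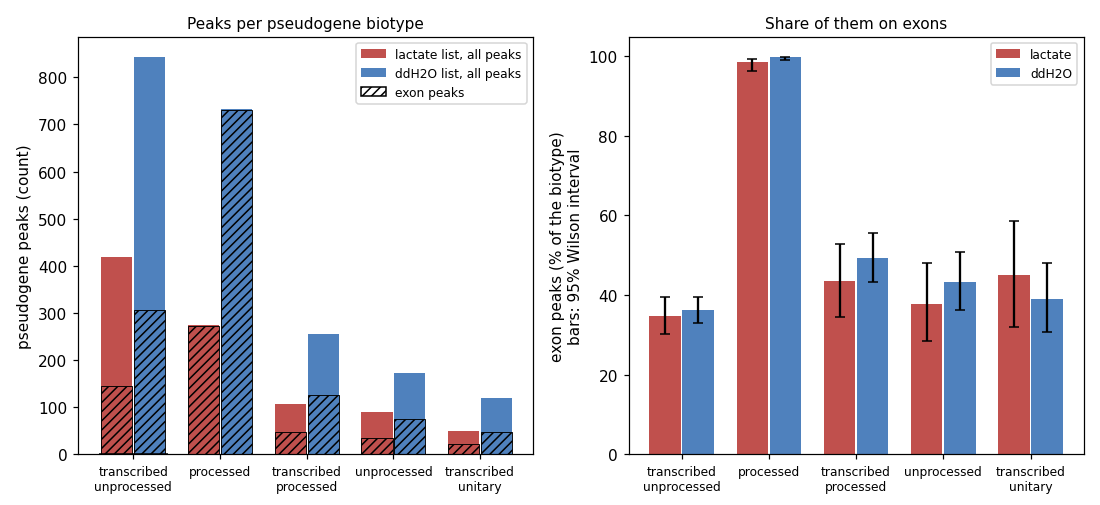
Left, the number of pseudogene peaks in the lactate and ddH2O lists for the 5 largest biotypes, with the exon peaks hatched. Right, the exon peaks as a percent of each biotype with 95% Wilson intervals; processed pseudogenes stand at 98.5% and 99.7% and the other 4 biotypes below 50%.

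Many processed pseudogenes sit inside other genes. By the RefSeq annotation of GRCh38.p14, processed pseudogene peaks lay within the span of a protein-coding gene in 46.5% of cases with lactate (40.7 to 52.4%) and 46.0% with ddH2O (42.4 to 49.6%). For transcribed unprocessed pseudogenes the share was 9.81% and 10.2%. LRRFIP1P1 in KCNMB3, EIF4BP6 in LHFPL3 and HSP90AB4P in ADAM10 are of this kind. Chromosome 7 held 11.7% (9.85 to 14.0%) of the lactate and 11.0% (9.77 to 12.4%) of the ddH2O pseudogene peaks, beside 5.45% and 5.39% of all peaks in the lists. The copies of PMS2, a DNA mismatch repair gene, led there with 15 lactate and 27 ddH2O peaks, followed by DPY19L1P1 with 20 and 20, LINC03009 with 11 and 20 and ZNF767P with 13 and 12.

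Enrichment over input on pseudogenes was close to that of the lists as a whole. The deposited fold of IP over input had a median of 3.24 (quartiles 2.73 and 4.79) over the lactate pseudogene peaks and 3.03 (2.43 and 4.85) over the ddH2O ones. Of the 945 pseudogene peaks with lactate, 392 had a q-value below 0.05 (41.5%, background 42.7%), as did 1042 of the 2131 with ddH2O (48.9%, background 48.6%). The median length was 237 and 244 bases. Of the pseudogene peaks, 34.5% with lactate and 38.2% with ddH2O carried 1 of the 3 most common fold values, beside 33.9% and 38.9% of all peaks. An overlap with a peak of the other list was found for 60.7% (57.6 to 63.8%) of the lactate and 27.1% (25.2 to 29.0%) of the ddH2O pseudogene peaks, beside 56.4% and 27.8% over all peaks.

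The highest folds belonged to single copies of several gene types. With lactate, an exon peak of CENPBD2P, a relative of a centromere DNA-binding gene, at chr19:58581571-58582252 (GRCh38, as all coordinates here) stood 19.1-fold over input. It was followed by intron peaks of DPY19L1P1 (18.2-fold) and CROCCP3 (17.7-fold) and by exon peaks of CENPBD1P (16.5-fold) and MAPK8IP1P2 (15.1-fold). With ddH2O, an exon peak of HSP90AB4P, a copy of a cytosolic chaperone gene, at chr15:58692320-58692817 was the highest at 23.7-fold. WASF4P (23.1-fold), the ZNF767P intron peak (21.5-fold), the ribosomal protein copy RPL13P5 (21.2-fold) and again CROCCP3 (21.2-fold) came next. CROCCP3, a copy of the ciliary rootlet gene CROCC, was thus among the top 5 of both lists.

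A parent gene could be named from the symbol for 736 of the 1325 pseudogenes, and 356 pseudogenes had no symbol. Of the pseudogenes with a named parent, 206 of 287 with lactate (71.8%, 66.3 to 76.7%) and 541 of 672 with ddH2O (80.5%, 77.3 to 83.3%) had a parent with a peak in the same list. Over all 20228 protein-coding genes, 47.3% had a peak with lactate and 58.7% with ddH2O. The share stood at 81.7% and 87.9% for transcribed unprocessed pseudogenes and at 66.5% and 78.9% for processed ones. For unprocessed pseudogenes without transcript evidence it was 15 of 15 with lactate and 28 of 36 with ddH2O. Parents of pseudogenes tend to be abundant mRNAs, and expression was not part of this comparison. Whether reads of the parent were placed on the copy was not tested.

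The keratin gene KRT18 had the most copies with a peak, 16, carrying 4 lactate and 16 ddH2O peaks, of which 3 and 16 lay on exons. The laminin receptor and ribosomal protein gene RPSA had 11 copies with 4 and 12 peaks, and the chromatin protein gene HMGB1 had 9 with 5 and 7. The copies of GUSB, HERC2 and PMS2, which are of the duplicated kind, carried more peaks per copy. GUSB, a lysosomal glucuronidase gene, had 9 copies with 15 and 24 peaks, and only 2 and 5 of these were exon peaks. HERC2, a ubiquitin ligase gene, had 6 copies with 17 and 22 peaks, and PMS2 had 6 copies with 15 and 27. These parents were chosen after their values were seen.

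Sorted by what the parent does, as read from the symbol, cytosolic ribosomal protein genes gave the largest family, with 121 pseudogenes, 50 lactate peaks and 117 ddH2O peaks, of which 45 and 110 lay on exons. With copies that only the description names added, a choice made after the values were seen, this family had 195 pseudogenes with 69 and 186 peaks. Zinc finger genes followed with 21 pseudogenes and 32 and 78 peaks, most of them in introns. ENSG00000215146, which has no symbol and is described as a zinc finger pseudogene, is not counted there and had 18 and 15 peaks of its own. Cytoskeletal genes had 38 pseudogenes with 13 and 35 peaks, and chaperones with PPIA had 25 pseudogenes with 18 and 34 peaks. Ubiquitin, SUMO and proteasome genes had 18 pseudogenes with 25 and 30 peaks, and 3 copies of UBE2Q2 carried 18 and 14 of these. Chromatin proteins had 30 pseudogenes with 13 and 24 peaks, nuclear oxidative phosphorylation genes 18 with 4 and 23, and translation factors 22 with 7 and 22. Splicing proteins had 17 pseudogenes with 5 and 15 peaks, glycolytic enzymes 7 with 2 and 11, olfactory receptors 10 with 4 and 11, ferritins 5 with 1 and 4, and solute carriers 5 with 3 and 5. The nuclear copies of mitochondrial DNA had 1 pseudogene peak by symbol, on MTND4LP1 with ddH2O, or 3 ddH2O peaks with those named by the description. No pseudogene was placed in the HLA and immune receptor family. Among pseudogenes with a symbol, only those whose symbol closes in P, alone or with digits, could enter a family. The empty family therefore does not show that such peaks were absent. The remaining 981 pseudogenes had another parent or none by symbol. They include pseudogenes whose symbol lacks the closing P, such as SLC35E2A, so the counts of the named families can be too low.

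**Figure D2:**
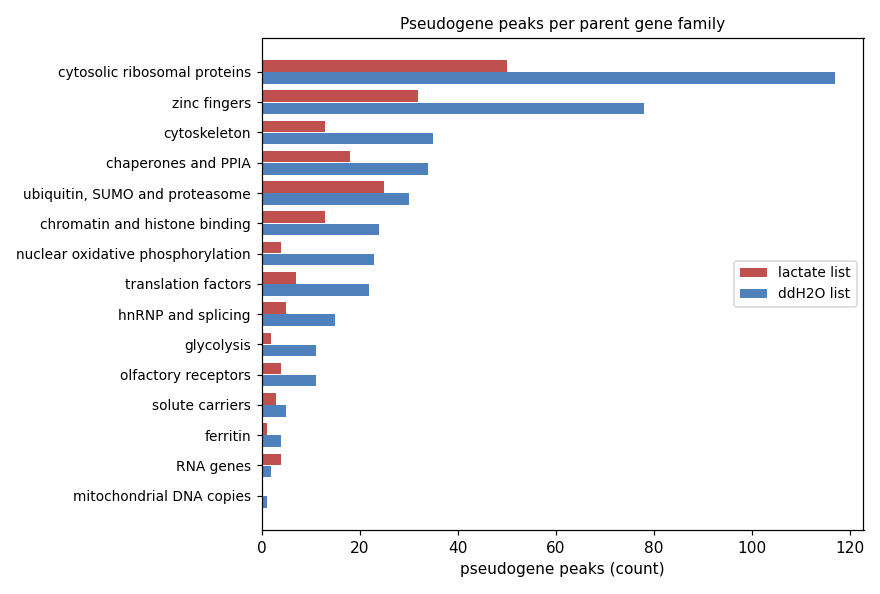
Number of pseudogene peaks per family of parent genes in the lactate list (red) and the ddH2O list (blue). Ribosomal protein copies lead with 50 and 117 peaks and zinc finger copies follow with 32 and 78; the 764 and 1719 peaks of other or unnamed parents are not drawn.

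Levels were compared between the IP libraries in windows of 2000 bases around the merged peaks. The deposited normalized densities, in reads per kb, were turned back into whole reads, and a region was called higher or lower with lactate when its normalized densities differed over 2-fold and its windows held at least 20 reads in both libraries together. Of the 2509 merged pseudogene peaks, 847 reached 20 reads and 1662 did not. Windows of 41.0% of the merged pseudogene peaks overlapped a neighbouring window, so neighbouring values can rest on the same reads. The median was 4 reads with lactate and 7 with ddH2O, and the total was 30650 and 56802. The input libraries have no such windows, so these levels are IP levels and not enrichments, and more RNA cannot be told apart from more binding.

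Of the 847 windows, 61 were higher with lactate (7.20%, background 7.65%) and 172 were lower (20.3%, background 18.6%). The median log2 ratio of the normalized densities, lactate over ddH2O, was -0.30, beside -0.20 over all merged peaks with as many reads. With the reads scaled instead by each library's sum over all windows other than those of MT-RNR2 and MALAT1, called library sums here, and 1 read added to each window, 135 were higher (15.9%, background 17%) and 83 lower (9.80%, background 8.77%), and the median was 0.13 for pseudogenes and 0.13 for all merged peaks. Windows higher with lactate were 26.2% of those that differed on the normalized densities and 61.9% by library sums, so the balance of directions depends on the scaling. On either scale the shares on pseudogenes lay near the background. A fold over 2 by the same library sums together with an exact two-sided binomial test of the reads of both libraries, adjusted over all merged peaks and with no read minimum, called 119 of the 2509 higher (4.74%, background 6.81%) and 46 lower (1.83%, background 1.69%), again between single libraries. The windows that were higher on the normalized densities belonged to 42 pseudogenes, the lower ones to 142, and 7 pseudogenes had both.

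**Figure D3:**
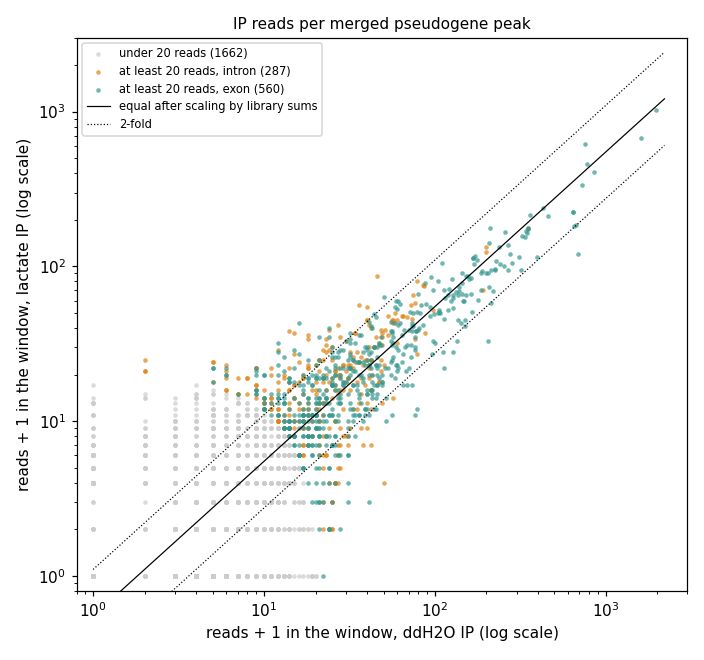
Reads plus 1 in the lactate IP window against reads plus 1 in the ddH2O IP window, both on log axes, for the 2509 merged pseudogene peaks, in grey under 20 reads (1662), orange for introns (287) and green for exons (560). The solid line marks equal levels after scaling by library sums and the dotted lines 2-fold differences; the 10 windows with the most reads are all on exons and lie between the dotted lines.

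Exon and intron windows differed in their shares. On pseudogene exons, 25 of 560 windows (4.46%) were higher with lactate and 118 (21.1%) lower, while in pseudogene introns 36 of 287 (12.5%) were higher and 54 (18.8%) lower. Protein-coding exons and introns gave 2.14% and 12.98% higher and 22.5% and 17.3% lower. By library sums, 10.2% of the exon and 27.2% of the intron windows on pseudogenes were higher, and 9.29% and 10.8% were lower. Protein-coding exons and introns gave 6.85% and 27.3% higher and 11.5% and 7.68% lower on that scale. Over all merged peaks, 7.65% were higher and 18.6% lower, or 17% and 8.77% by library sums. Processed pseudogenes, which are nearly all exon, had 13 higher (4%) and 82 lower (25.2%) of 325, or 30 (9.23%) and 34 (10.5%) by library sums. Unprocessed pseudogenes without transcript evidence had 9 higher (18%), on 7 pseudogenes, and 3 lower (6%) of 50, or 16 (32%) and 1 (2%) by library sums. Windows of 39.5% of the merged peaks in this class overlapped a neighbouring window. Transcribed unprocessed pseudogenes had 29 higher (8.58%) and 56 lower (16.6%) of 338, or 70 (20.7%) and 28 (8.28%) by library sums.

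**Figure D4:**
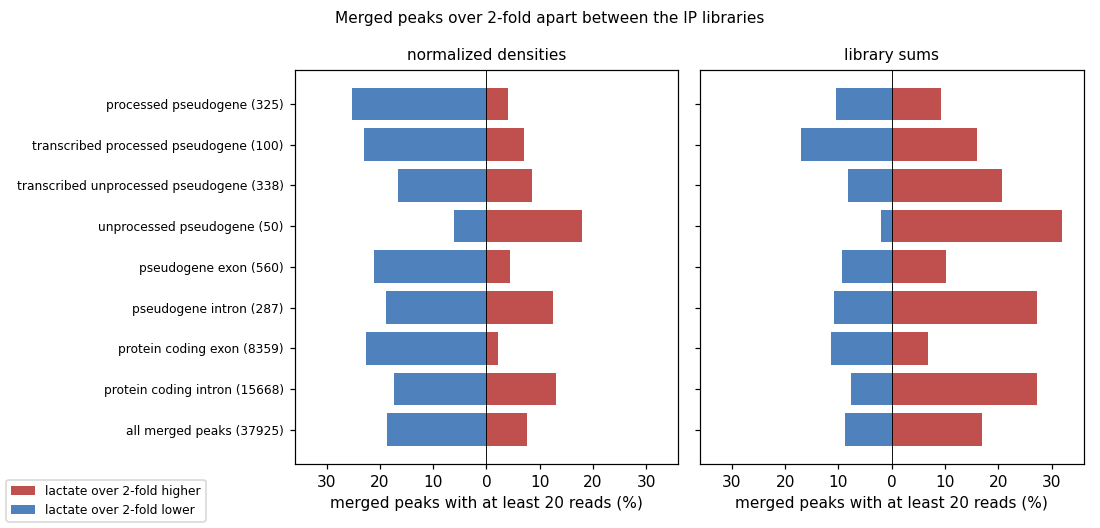
Percent of merged peaks with at least 20 reads that were over 2-fold higher (red, to the right) or lower (blue, to the left) with lactate, by normalized densities and by library sums, with the number of windows in brackets. Introns show more higher windows than exons on both scales, 12.5% against 4.46% on pseudogenes by normalized densities.

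The 10 windows with the most reads all lay on exons of processed or transcribed processed pseudogenes. RPL3P4, a copy of the gene of ribosomal protein L3, at chr14:98972758-98973224 held 1021 reads with lactate and 1956 with ddH2O. Its log2 ratio was 0.46 on normalized densities and -0.07 by library sums (95% counting interval -0.19 to 0.03). The parent RPL3 had 0 peaks with lactate and 3 with ddH2O, and the densest of its 3 merged peaks held 337 and 745 reads, so the copy held more reads in each library than that window of its parent. EIF2S2P4, a copy of an initiation factor subunit gene, at chr2:170751806-170752165 held 679 and 1609 reads, below the 821 and 2551 of the densest EIF2S2 window. Over all 3 merged peaks of RPL3 the windows summed to 690 and 1611 reads, and over the 6 of EIF2S2 to 1396 and 4357. Overlapping windows can count the same reads more than once. Parent exons can be spread over several windows, and whether this bears on the difference was not tested.

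LRRFIP1P1 at chr3:179259674-179260234, inside the span of the potassium channel subunit gene KCNMB3, held 616 reads with lactate and 750 with ddH2O. Its log2 ratio of 0.93 on normalized densities and 0.58 (0.42 to 0.73) by library sums stayed under 2-fold. It stood 10.4-fold over input with lactate and 9.67-fold with ddH2O. Its parent LRRFIP1, a gene of an actin and nucleic acid binding protein, had 21 lactate and 29 ddH2O peaks, and its densest window held 3127 and 5487 reads.

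RAC1P2, a copy of the small GTPase gene RAC1, at chr4:46723857-46724175 held 405 and 851 reads but stood only 1.21-fold over input with lactate and 1.26-fold with ddH2O. RPL13AP5 at chr10:96750452-96750906 held 456 and 778 reads, and its parent RPL13A held 488 and 1243 in its densest window. The parent's log2 ratio was -0.10 on normalized densities and that of the copy 0.41. A copy of the elongation factor gene EEF1G, ENSG00000283041, in the span of CHCHD3 held 332 and 721 reads. All 3 stayed under 2-fold on both scales.

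RPL6P27 and HSP90AA2P each gave a pair of neighbouring regions. The RPL6P27 pair shared the same 222 lactate and 639 ddH2O reads, with a log2 ratio of -0.45 on normalized densities and -0.66 (-0.89 to -0.44) by library sums. The densest window of its parent RPL6, a ribosomal protein gene, held 196 and 452 reads, fewer than the copy in each library. The windows of all 4 merged peaks of RPL6 summed to 466 and 1146, more than the copy, though overlapping windows can count reads more than once. HSP90AA2P, a copy of an inducible chaperone gene, held 184 and 671 reads in 1 window and 181 and 652 in the other. Their log2 ratios were -0.81 and -0.79 on normalized densities and -0.998 and -0.980 by library sums, the lowest among these 10 regions. The second HSP90AA2P region stood 4.30-fold over input with lactate and 11.7-fold with ddH2O.

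Differences over 2-fold were also looked for where reads were plentiful, a choice made after the values were seen. Of the 154 merged pseudogene peaks with at least 100 reads, 1 was higher with lactate (0.649%, background 1.79%) and 12 were lower (7.79%, background 6.64%), or 2 and 8 by library sums (backgrounds 2.95% and 4.01%). The higher one was an intron region of DUXAP10. The lower ones were exon regions, 11 of them on processed copies. ENSG00000253683, described as a CCDC72 copy, in the span of NEURL1B at chr5:172656449-172656690 held 119 lactate and 686 ddH2O reads, a log2 ratio of -1.51 on normalized densities and -1.65 (-1.96 to -1.38) by library sums. HSPD1P1, a copy of a mitochondrial chaperonin gene, held 57 and 212 reads in one region and 42 and 140 in the next, and EIF4A1P10, a copy of an initiation factor helicase gene, held 27 and 127. The copies of the ribosomal protein genes RPL41 and RPL29 held 21 and 112 and 31 and 99 reads, respectively. Copies of HMGN2, UPF3A and LSM12, the unitary pseudogene AHSA2P and an unnamed copy, ENSG00000235912, were also lower, and so was ATP5F1EP2. HMGN2P5, the RPL29 copy, AHSA2P and the second HSPD1P1 region stayed under 2-fold by library sums.

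The largest ratios came from windows with few reads. Among windows with at least 20 reads, 2 intron regions of SEPTIN7P14, a copy of a septin gene, held 24 and 20 reads with lactate against 1 and 1 with ddH2O. These regions are neighbours, and their windows overlap and can share reads. The first gave a log2 ratio of 3.75 on normalized densities, and its counting interval by library sums ran from 2.83 to 10.8. SUMO2P17, a copy of a small protein modifier gene, held 20 reads with lactate against 1 in an intron window at chr17:48907389-48907797, with an interval from 2.54 to 10.6. A pair of intron regions of ENSG00000261419, an unprocessed copy described as a PLA2G10 pseudogene, shared 23 lactate and 4 ddH2O reads, a log2 ratio of 2.47 (by library sums 1.84 to 5.38). All 5 were intron regions. The densest window of the parent SEPTIN7 held 15 lactate and 35 ddH2O reads, and that of SUMO2 held 16 and 15. Over all 11 merged peaks of SEPTIN7, with no read minimum, the log2 ratio on normalized densities ran from -1.29 to 4.53.

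In the other direction, ENSG00000255836, a processed copy described as an MPHOSPH8 pseudogene in the span of CD163L1, held 0 lactate and 21 ddH2O reads. The upper limit of its 95% counting interval by library sums was a log2 ratio of -1.52. NANOGNBP3 held 1 and 27 reads, with a counting interval of the log2 ratio from -9.25 to -1.29. TDGP1, a copy of a thymine DNA glycosylase gene, held 2 and 40 reads (-6.55 to -1.51), while the densest window of its parent TDG held 20 and 22. A pair of intron regions of ENSG00000286215, described as a vimentin copy, in the span of CENPW shared 1 lactate and 24 ddH2O reads (-9.08 to -1.11). These values compare 2 libraries and carry no spread between cultures.

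The families were small, and in several the balance of higher and lower windows changed with the scaling, as it did over all merged peaks (7.65% higher and 18.6% lower on normalized densities, 17% and 8.77% by library sums). Of the 61 ribosomal protein windows with at least 20 reads, 3 were higher and 9 lower with lactate, or 6 and 3 by library sums, and the median log2 ratio was -0.32 and 0.06, respectively. Of 21 chaperone windows 2 were higher and 7 lower, or 3 and 2 by library sums, with medians of -0.53 and -0.26. Of 36 zinc finger windows 1 was higher and 8 lower, or 3 and 5 by library sums, with medians of -0.30 and 0.16, and ENSG00000215146 is again not among them. Of 16 ubiquitin, SUMO and proteasome windows 3 were higher and 5 lower, or 5 and 2 by library sums, with medians of -0.89 and -0.55. PSMC1P1, a copy of a proteasome ATPase gene at chr3:68635553-68635988, held 114 and 392 reads there, a log2 ratio of -0.84, or -0.91 by library sums.

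Copies of nuclear oxidative phosphorylation genes had 0 higher and 4 lower of 6 windows, with 1 higher and 4 lower by library sums and medians of -1.90 and -1.43. In this family ATP5F1EP2, a copy of an ATP synthase subunit gene, held 27 and 111 reads, and NDUFB1P1, a copy of a complex I subunit gene in the span of CDC25A, held 2 and 30. NDUFA4P1 held 22 and 19. Cytoskeletal copies had 0 higher and 3 lower of 12 windows, or 0 and 2 by library sums, and the 2 KRT8P3 regions held 61 and 126 reads in one window and 59 and 123 in its neighbour. Chromatin copies had 0 higher and 2 lower of 14, or 2 and 0 by library sums, and SETP14 had the most reads with 214 and 357. Within each family the regions named in these last sentences are among its 3 with the most reads, a choice made after the values were seen.

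The pseudogenes with the most peaks were of the duplicated kind. DPY19L1P1 on chromosome 7, a copy of a mannosyltransferase gene, had 20 peaks in each list, 1 of them on an exon in each. Of its 12 windows with at least 20 reads, 2 were higher and 0 lower, or 5 and 0 by library sums, and its windows held up to 177 lactate and 351 ddH2O reads. MFSD14C on chromosome 9 had 13 and 23 peaks, and none of its 9 windows was over 2-fold apart on either scale. LINC03009 had 11 and 20 peaks, and 3 of its 15 windows were higher and 1 lower, or 3 and 0 by library sums. Its biotype is transcribed unprocessed pseudogene, but its description is that of a long intergenic non-protein coding RNA. Some other members, such as SVIL-AS1, also carry names of noncoding RNA genes under a pseudogene biotype.

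ENSG00000215146, described as a zinc finger pseudogene on chromosome 10, went the other way from most, with 18 lactate and 15 ddH2O peaks. Of its 13 windows, 7 were higher with lactate and 2 lower, and by library sums 9 were higher and 0 lower. The median log2 ratio was 1.29 on normalized densities and 1.78 by library sums. Its windows held between 0 and 37 reads with lactate, with a median of 14.5, and between 0 and 42 with ddH2O, with a median of 8. It supplied 7 of the 61 higher windows, but all 7 belong to neighbouring regions at chr10:42313288-42318882, whose windows of 2000 bases overlap and share reads.

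Of 31 pseudogenes studied in cancer, 11 had a pseudogene peak, 6 of them with lactate and 11 with ddH2O. DUXAP8 had peaks under the biotype lncRNA, and 19 had none. Those without a peak included KRASP1, BRAFP1, PTTG3P, FTH1P3, NANOGP8 and GAPDHP1.

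DUXAP9 and DUXAP10, transcribed copies of the homeobox gene DUXA on chromosome 14, had the most peaks in this list. DUXAP10 had 7 peaks in each list, and of its 8 windows 3 were higher with lactate and 1 lower, or 3 and 0 by library sums. Its densest higher window, at chr14:19310112-19311042, held 85 reads with lactate and 45 with ddH2O, a log2 ratio of 1.54 on normalized densities and 1.77 (1.24 to 2.34) by library sums. Its fold over input was 9.26 with lactate and 6.37 with ddH2O. The other 2 higher regions were its neighbours, at chr14:19311499-19311815 and chr14:19312380-19312629, and their windows overlap and share reads. The lower window held 11 and 34 reads. DUXAP9 had 7 and 10 peaks, with 0 windows higher and 2 lower of 8, or 3 and 2 by library sums. The 2 lower DUXAP9 regions shared 3 and 25 reads, and its densest window held 132 and 199. DUXA had no peak in either list.

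PDIA3P1, a copy of a disulfide isomerase gene in the span of CHD1L, held 108 and 226 reads and stood 4.64-fold over input with lactate and 6.06-fold with ddH2O. PA2G4P4, a copy of a growth regulator gene, had 2 peaks in each list with 141 and 207 and 116 and 170 reads. NSUN5P2, a copy of the rRNA m5C methyltransferase gene NSUN5, had 1 ddH2O peak in the span of POM121 with 82 and 157 reads, and the window of NSUN5 held 37 and 75. RPSAP52 had 3 lactate peaks and 1 ddH2O peak, and its exon window, in the span of the chromatin gene HMGA2, held 18 and 13 reads, a log2 ratio of 0.75 on normalized densities and 1.30 by library sums. None of the windows of these 4 with at least 20 reads passed 2-fold on the normalized densities, and 2 RPSAP52 intron windows with 4 and 5 lactate reads against 0 and 0 were under that minimum.

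FER1L4, a unitary pseudogene of the ferlin family, had 2 lactate and 5 ddH2O peaks, and none of its 7 windows reached 20 reads. GBAP1, HSPB1P1 and UBE2CP3 had ddH2O peaks alone, with at most 9 reads per window in either library. Of the 21 windows of the cancer list with enough reads, 3 were higher and 3 lower on normalized densities, or 7 and 2 by library sums, beside backgrounds of 7.65% and 18.6% and of 17% and 8.77%. The 3 higher ones are the neighbouring DUXAP10 windows.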

How the data were processed

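NSUN2 RIP-seq was deposited for PANC-1 cells with lactate or ddH2O, 1 IP and 1 input library each. The authors called peaks per IP library against its input, and the processing notes name fastp 0.20.1, HISAT2 2.1.0, MACS2 2.2.7.1 and bedtools 2.29.2, with GRCh38. For each peak the deposited lists hold a fold ratio (IP to input) with p- and q-values. The deposited −log10 values are logs of that p-value and that q-value. The deposited table of merged peaks gives a normalized signal (read density) per IP library, and its log2 ratios and P-values of the authors' own comparison were not used. The labels give 4 h of immunoprecipitation. From the signal, 99.998% of windows gave whole reads (tolerance 0.05) in both libraries. Depth of the inputs is unknown.

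Members, lists and families were chosen with earlier results of these data known. Pseudogenes were named by most reads, largest ratios, highest folds, most peaks and a list of pseudogenes studied in cancer, with their parents; 1 of these is not reported here. Of the 1325 pseudogenes, 356 had no symbol. Intervals are 95% Wilson for shares and exact Clopper-Pearson for ratios of reads, and cover counting error only. Alternatives were q-value, fold, region, overlap, scaling and read minimum settings, and an exact two-sided binomial test with Benjamini-Hochberg adjustment over all merged peaks, which compares 2 libraries. Read recovery was tested on simulated data. Python 3.11.15, pandas 2.3.3, scipy 1.17.1 and bedtools 2.31.1 were used.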

Additional observations from a re-analysis of the deposited data

How the results depend on the processing

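No paired analysis was possible because lactate and ddH2O have a single IP library apiece. Of 65 alternative values of the shares and counts, 25 stayed within their limits and 40 moved. Over the 847 pseudogene windows, lower ones outnumbered higher ones on the normalized densities, and this balance turned by library sums, on which the exact binomial calls also rest. It did not turn for windows with at least 100 reads (2 higher and 8 lower by library sums) or for processed pseudogenes (30 and 34).

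Counted on exon peaks alone, pseudogenes held 5.48% of lactate and 6.16% of ddH2O exon peaks, and ribosomal protein copies 8.62% and 8.56% of the pseudogene ones. Of all pseudogene peaks, ribosomal protein copies held 5.29% and 5.49%, and 7.30% and 8.73% with families read also from the description, a choice made after seeing the data. At a q-value below 0.05, processed pseudogenes held 33.4% and 38.3%, transcribed unprocessed ones 39.5% with lactate, exons 61.2% and 65.9%, the median fold was 5.20 and 4.85, the overlap was 73.0% with lactate, and the parent share was 59.2% and 76.3%. The exon share in processed classes alone was 83.2% and 86.7%. An overlap of 50% of both peaks left 43.0% and 19.4%, and an exon or UTR peak on the parent left 62.4% and 73.2%.

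Windows higher and lower with lactate numbered 135 and 83 by library sums, 12 and 43 at a fold over 4, 134 and 383 at 10 reads, 13 and 41 at 50 reads, 285 and 1046 with no minimum, 119 and 46 by the exact binomial test on library sums, 20 and 105 on processed classes alone, 29 and 110 with 1 window per pseudogene, and 1 and 12 at 100 reads, the last 2 settings chosen after seeing the data. The sequencing depth limits the calls: 44.8% of the merged pseudogene peaks had under 10 reads.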
